A study of Jatropha curcas with 31 samples.

Results

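A set of 6 assembled transcripts of the physic nut Jatropha curcas was described, with a pair for each of 3 enzymes of phenylpropanoid biosynthesis. They were contig09522 and contig02028 for 4-coumarate:CoA ligase (4CL), contig12200 and contig12199 for caffeoyl-CoA O-methyltransferase (CCoA-OMT), and contig14503 and contig02951 for peroxidase. In each enzyme's list the pair held the largest fall and the largest rise from the youngest to the oldest seed stage, for peroxidase among the 30 contigs that could be read of a shortened list. The 6 contigs carried 23 of the 57842 probes on the array, which covered 19838 contigs. A contig is a transcript assembled from seed cDNA reads, and the enzyme names are those of the study's own annotation. Contig02951 stood in that annotation under peroxiredoxin as well as under peroxidase. The RefSeq annotation held 2 of the 6 by accession, contig02028 as LOC105635256 and contig12199 as LOC105634141.

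Messenger RNA was measured on 31 one-colour Agilent arrays, 21 of them hybridised with whole seeds and 10 with leaves. The seeds came from 1 selected plant, without a treatment, and were staged by the colour of the fruit and the seed: stage I green-white (n = 3), stage II green-half (n = 4), stage III green-black (n = 3), stage IV yellow (n = 3), stage V brown (n = 4) and stage VI dry (n = 4). The leaves came from non-toxic (n = 5) and toxic (n = 5) J. curcas, and the sources used here do not say whether the replicates were separate plants. Whole seeds hold coat, endosperm and embryo together, so fewer cells of a type and less RNA per cell cannot be told apart. All values are log2 fluorescence intensities after quantile normalization over the 31 arrays, with SD as the error unless another is named, and a probe counted as detected on an array where the scanner software marked its spot as well above background.

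Phenylpropanoids are plant phenolics made from phenylalanine. The ammonia-lyase PTAL and the hydroxylase C4H produce coumaric acid, which 4CL joins to coenzyme A, and this thioester is the branch point between flavonoids and the alcohols of lignin. CCoA-OMT adds a methyl group on the way to guaiacyl and syringyl lignin units, the reductases CCR and CAD yield the lignin alcohols, and secreted peroxidases oxidise these alcohols to radicals that couple in the cell wall. In seeds, lignin and other phenolics are laid down chiefly in the coat. Peroxiredoxins are peroxidases of another kind that reduce peroxides with a cysteine and do not make lignin, and the 1-Cys type is known from embryos and aleurone of dry barley and Arabidopsis seeds.

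The values that chose the contigs were differences between stage VI and stage I, and they are given without a test. On the log2 scale stage VI minus stage I was -8.60 for contig09522, -6.36 for contig12200 and -10.33 for contig14503. It was 1.70 for contig02028, 5.17 for contig12199 and 5.88 for contig02951. The nearest contigs not chosen stood at -7.02 (contig07594) and 0.83 (contig02947) for 4CL, at -5.30 (contig13491) and 4.24 (contig21354) for CCoA-OMT, and at -9.65 (contig14904) and 4.35 (contig00058) for peroxidase. All contrasts with stage I or VI are therefore descriptions. The steps from II to V and the leaves use other arrays and were tested with limma, with p-values adjusted over all 57842 probes. A contig chosen for its change from I to VI has to move at some step between them, so the direction of those steps is partly set by the choice.

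**Figure D1:**
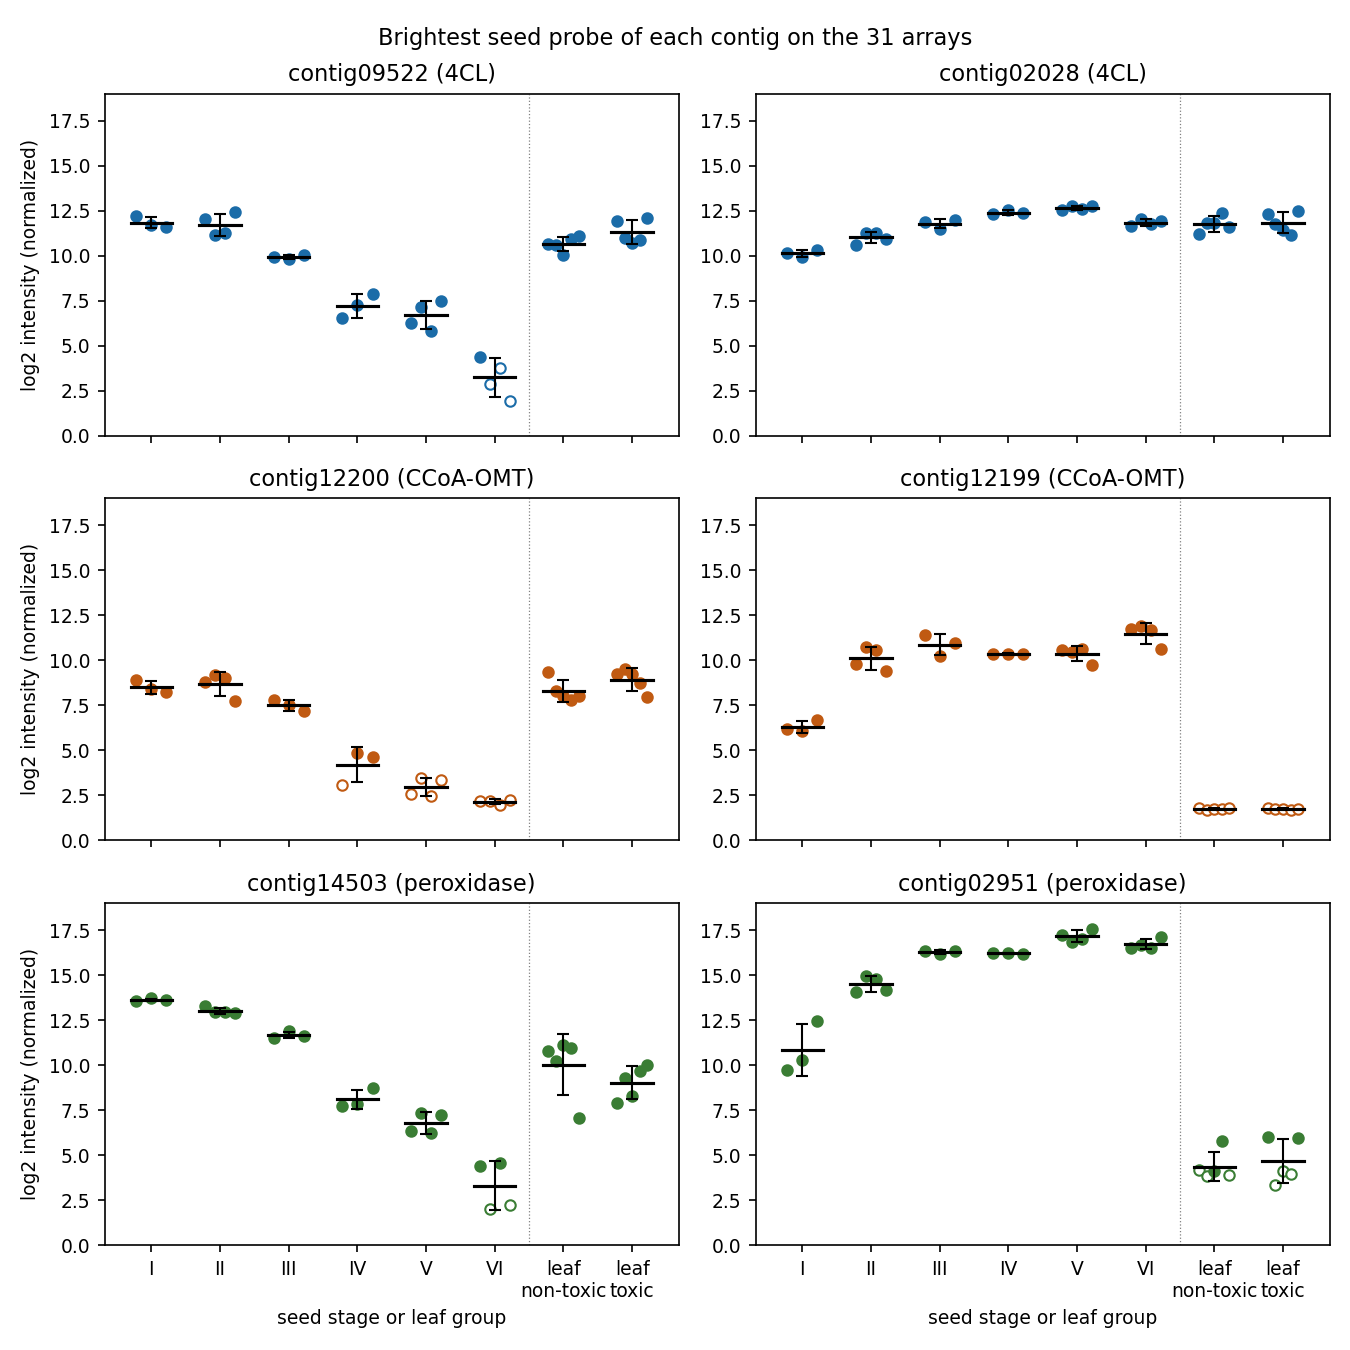
Normalized log2 intensity of the brightest seed probe of each contig, on the vertical axis, in the 6 seed stages and 2 leaf groups. Each point is 1 array, bars are the group mean with SD, and open points mark spots not well above background; contig09522, contig12200 and contig14503 fell through the stages, and contig12199 was not detected on any of the 10 leaf arrays.

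The probe brightest on average across the 21 seed arrays stood for its contig. Of the 23 member probes, 3 were not detected on any array, 3 were detected on all 31, and 19 were detected on every array of at least 1 group. None of them was saturated, marked as an outlier or filled by imputation on any array. Across the 23 probes, 5 passed the test between stages II and III (21.7%, against 16.7% of all probes), with 4 higher and 1 lower at stage III (against 6.52 and 10.2%). Between III and IV 7 passed (30.4%, against 11.1%), with 2 higher and 5 lower at stage IV (against 6.94 and 4.17%). Between IV and V none passed (against 3.51%), and 4 of the 23 had an unadjusted limma p under 0.05 (against 13.5%). At an adjusted p under 1e-08, the study's own threshold, none passed between II and III or between III and IV (against 0.0985 and 0.0121%). On slides 1 to 3, without the 7 arrays of a slide that stood apart, 8, 10 and 3 probes passed at these 3 steps, and without replicate 1 of stage II, or replicate 1, 2 or 3 of stage III, the count between II and III was 2, 3, 3 and 3. The members had been chosen for large changes over the same series of stages, so a share above the background is no result about them.

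**Figure D2:**
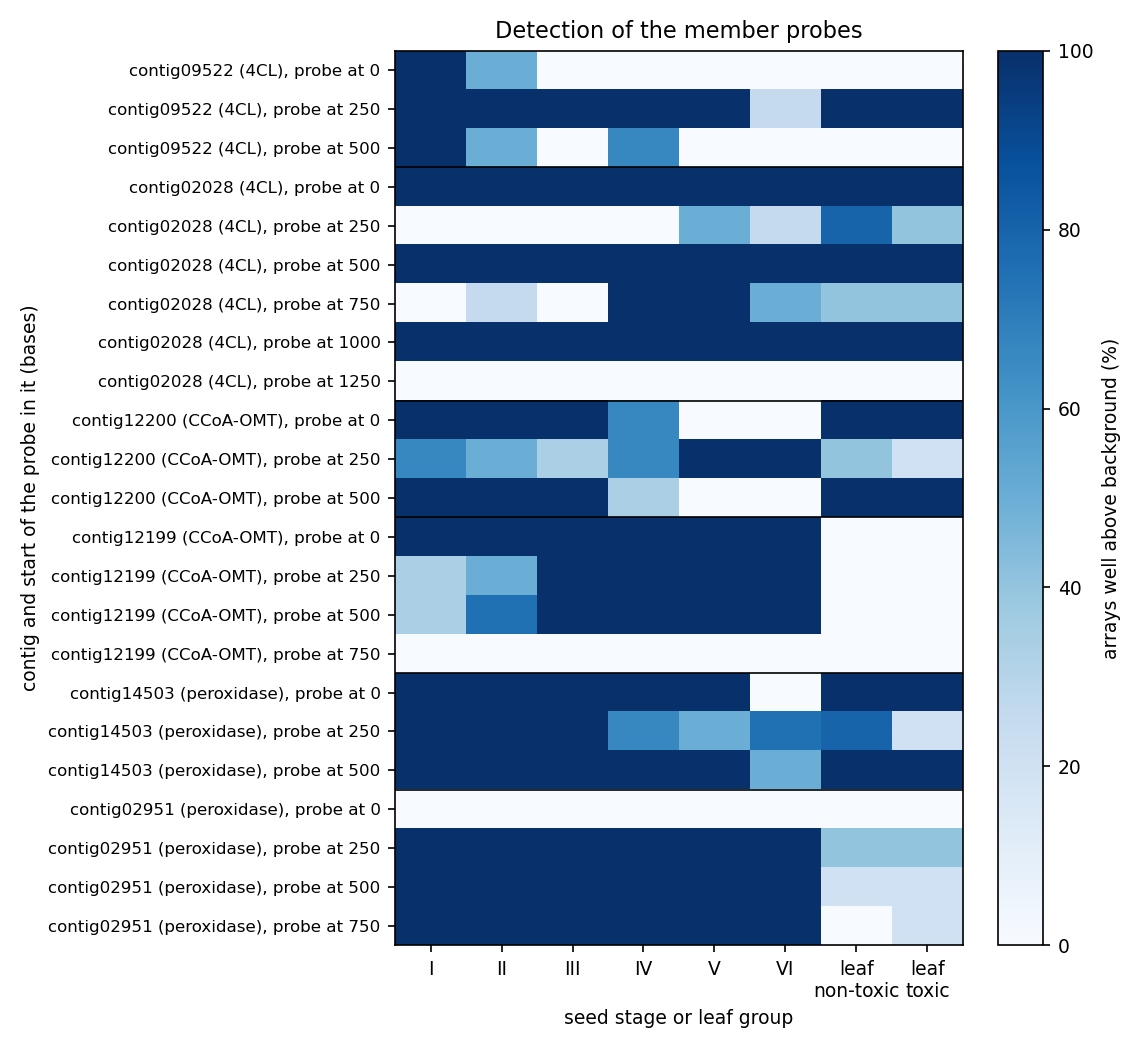
Share of arrays on which each of the 23 member probes was well above background (colour, in %), with probes in rows and the 6 seed stages and 2 leaf groups in columns. The 4 probes of contig12199 were blank in both leaf groups, whereas 3 probes of contig02028 were detected on all 31 arrays.

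For 4CL, which activates hydroxycinnamic acids for both lignin and flavonoids, the brightest probe of contig09522 was high in the green seeds and in leaves and low in mature seeds. This contig was 701 bases long, and its probe at base 250 stood at 12.20, 11.71 and 11.59 in stage I and at 12.04, 11.16, 11.27 and 12.41 in stage II. It read 9.94, 9.80 and 10.02 in stage III, 6.55, 7.23 and 7.84 in stage IV, and 6.24, 7.16, 5.83 and 7.48 in stage V. At stage VI it read 4.38, 2.87, 3.75 and 1.92, and only 1 of these 4 arrays detected it. Stages I and II overlapped, stage III lay below both, and stages IV and V overlapped each other below stage III. The fall from II to III was 1.80 on the log2 scale (SE 0.49, limma adjusted p = 0.0105), and that from III to IV was 2.72 (SE 0.52, adjusted p = 0.00087). Neither pair of groups overlapped, and each fall was seen on all 3 slides that held both stages, with differences of -2.10 to -1.24 and -3.39 to -2.18. The step from IV to V was -0.53 (adjusted p = 0.803). The probes of this contig at bases 0 and 500 were detected on 5 and 7 arrays. With the mean of all 3 probes the step from III to IV was -0.72 (limma adjusted p = 0.238).

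The other 4CL transcript, contig02028 (1329 bases), stayed between 9.94 and 12.75 on all seed arrays, with higher means at each stage up to stage V. Its probe at base 1000 read 10.13, 9.94 and 10.30 in stage I, 10.61, 11.24, 11.26 and 10.93 in stage II, and 11.87, 11.47 and 11.98 in stage III. It read 12.28, 12.54 and 12.34 in stage IV, 12.52, 12.75, 12.56 and 12.73 in stage V, and 11.62, 12.03, 11.73 and 11.90 in stage VI. Stages I to IV did not overlap one another, stages IV and V overlapped, and all stage VI arrays lay below those of stage IV. The step from II to III was 0.76 (SE 0.28, limma adjusted p = 0.0585), that from III to IV 0.62 (SE 0.30, adjusted p = 0.207) and that from IV to V 0.25 (SE 0.28, adjusted p = 0.873). The first of these passed with normexp background correction (0.77, adjusted p = 0.0213) and with the authors' deposited values (0.80, adjusted p = 0.00736). Of its other probes, that at base 0 was 1.55 higher at stage IV than at stage III (SE 0.48, adjusted p = 0.0339).

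For CCoA-OMT, the methyltransferase of the lignin branch, 2 of the 3 probes of contig12200, at bases 0 and 500, were no longer detected in brown and dry seeds. Contig12200 (667 bases), with its probe at base 0, read 8.90, 8.40 and 8.22 in stage I, 8.78, 9.18, 9.04 and 7.73 in stage II, and 7.82, 7.51 and 7.21 in stage III. In stage IV it read 3.10, 4.88 and 4.65 and was detected on 2 of the 3 arrays. In stage V it read 2.58, 3.49, 2.48 and 3.34 and in stage VI 2.19, 2.19, 1.97 and 2.26, and no array of either stage detected it. The fall from III to IV was 3.30 on the log2 scale (SE 0.46, limma adjusted p = 2.69e-05), and the stages did not overlap. The step from II to III was -1.17 (SE 0.43, adjusted p = 0.064), where only replicate 4 of stage II reached into the range of stage III, and without that array it was -1.48 (adjusted p = 0.0226) and on slides 1 to 3 -1.37 (adjusted p = 0.0164). The step from IV to V was -1.24 (adjusted p = 0.132), and without replicate 1 of stage IV, the array that had not detected the probe, it was -1.79 (adjusted p = 0.0318) and on slides 1 to 3 -1.40 (adjusted p = 0.0314). No array of stage VI detected the probe at base 0, and a floor-based estimate put it 81.9-fold lower there than in stage I. That estimate took the lowest detected signal of any probe or the probe's own, whichever was higher on each array. It is not a strict minimum. The probe at base 250, in contrast, was detected on all 4 arrays of stage V and all 4 of stage VI.

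Contig12199 (894 bases) was the CCoA-OMT transcript chosen for its rise, and most of its difference lay between stages I and II. Its probe at base 0 read 6.18, 6.07 and 6.70 in stage I, 9.78, 10.76, 10.56 and 9.40 in stage II, and 11.40, 10.25 and 10.98 in stage III. It read 10.35, 10.38 and 10.37 in stage IV, 10.59, 10.49, 10.62 and 9.75 in stage V, and 11.74, 11.91, 11.68 and 10.62 in stage VI. All 21 seed arrays detected it, and stage I lay below every other stage, by 3.81 from stage II as a difference of means that entered the choice. From stage II to stage V the groups overlapped, and no step passed the test: 0.75 from II to III (SE 0.31, limma adjusted p = 0.113), -0.51 from III to IV (adjusted p = 0.403) and -0.0068 from IV to V (adjusted p = 1). The first step passed without replicate 2 of stage II (0.96, adjusted p = 0.0427) and without replicate 2 of stage III (1.06, adjusted p = 0.0393).

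A second probe of contig12199, at base 500, followed another course over the same stages. It read 2.80, 2.55 and 4.58 in stage I, 3.42, 5.19, 4.998 and 4.91 in stage II, 7.91, 7.44 and 8.05 in stage III, and 9.89, 9.996 and 9.90 in stage IV. It then read 10.499, 10.77, 10.56 and 10.60 in stage V and 7.93, 7.25, 8.02 and 8.35 in stage VI. Its climb lay between stages II and IV, where the probe at base 0 was level, and it was lower at stage VI than at stage V by 2.72, where the probe at base 0 was higher by 1.12. The rise from II to III was 3.17 (SE 0.42, limma adjusted p = 5.84e-06) and that from III to IV 2.13 (SE 0.45, adjusted p = 0.00229). The probe at base 250 rose by 1.67 from II to III (SE 0.50, adjusted p = 0.0201), and the probe at base 750 was not detected on any array.

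For peroxidase, the enzyme class that oxidises lignin alcohols, contig14503 was the contig with the largest fall. Contig14503 (630 bases), with its probe at base 500, read 13.59, 13.71 and 13.60 in stage I, 13.29, 12.95, 12.96 and 12.91 in stage II, and 11.53, 11.89 and 11.63 in stage III. It read 7.74, 7.87 and 8.72 in stage IV, 6.35, 7.36, 6.24 and 7.27 in stage V, and 4.40, 2.00, 4.55 and 2.25 in stage VI, where 2 of 4 arrays detected it. No 2 of the 6 stages overlapped, each lying below the one before. The fall from III to IV was 3.57 on the log2 scale (SE 0.77, limma adjusted p = 0.00251). The steps from II to III (-1.34, SE 0.72, adjusted p = 0.236) and from IV to V (-1.31, SE 0.72, adjusted p = 0.472) did not pass. Its probe at base 0 fell by 3.27 from III to IV (SE 0.75, adjusted p = 0.00449) and was not detected at stage VI. By the floor-based estimate it was 752-fold lower there than at stage I.

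Contig02951 (965 bases), listed as peroxidase and as peroxiredoxin, rose in the green seeds and then stayed high. Its probe at base 250 read 9.74, 10.32 and 12.46 in stage I, 14.05, 14.95, 14.81 and 14.18 in stage II, and 16.32, 16.17 and 16.36 in stage III. It read 16.25, 16.23 and 16.20 in stage IV, 17.26, 16.82, 17.02 and 17.58 in stage V, and 16.54, 16.67, 16.52 and 17.13 in stage VI. Stages I, II and III did not overlap, and stage I had the widest spread of the seed stages for this probe (10.84 ± 1.43, n = 3). The rise from II to III was 1.79 (SE 0.57, limma adjusted p = 0.0318). This call was lost without replicate 1 of stage II (1.64, adjusted p = 0.0769), without its replicate 4 (1.70, adjusted p = 0.0777), and without replicate 1 (1.75, adjusted p = 0.0821), 2 (1.83, adjusted p = 0.0752) or 3 (1.73, adjusted p = 0.0841) of stage III. The steps from III to IV (-0.057, adjusted p = 0.978) and from IV to V (0.94, adjusted p = 0.553) did not pass.

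On their brightest seed probes, contig09522, contig02028, contig12200 and contig14503 were detected on all 10 leaf arrays, contig02951 on 4 and contig12199 on none. Some other probes of these contigs were detected on fewer leaf arrays or on none. No share over all contigs stands beside these counts, so they are a description only. The contrast set the mean of the 2 leaf groups against the mean of seed stages II to V, and 12 of the 23 member probes passed it (52.2%, against 47.9% of all probes), 6 higher and 6 lower in leaf (against 26 and 21.9%). At an adjusted p under 1e-08 7 passed (against 11%). With each array scaled to its 75th percentile in place of quantile normalization, the split was 4 higher and 8 lower, and the median of all probes moved from 0.063 to -0.20.

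Contig12199 was the only member whose brightest seed probe was detected on no leaf array. Its probe at base 0 read 1.79, 1.71, 1.74, 1.74 and 1.78 in non-toxic leaf and 1.79, 1.73, 1.77, 1.72 and 1.76 in toxic leaf, and none of these 10 arrays detected it. By the floor-based estimate it was 300.1-fold lower in leaf than in seed stages II to V (measured difference -8.68, SE 0.17, limma adjusted p = 2.03e-23). Set against single stages, leaf was 286-fold lower than stage V and 623-fold lower than stage VI by that estimate. The probes at bases 250 and 500 were also undetected in all leaf arrays, with estimates 4.39-fold and 48.9-fold lower than in seed. Undetected spots of the probe at base 250 read up to 4.44 in toxic leaf. With normexp, which adds an offset before the log, the difference at base 0 was -4.62, smaller than the folds given for that probe.

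Contig02951 was likewise near the background in leaf. It read 4.21, 3.87, 4.15, 5.77 and 3.88 in non-toxic leaf and 6.02, 3.35, 4.11, 3.94 and 5.95 in toxic leaf, and 4 of these 10 arrays detected it. The leaf arrays lay below every seed array, and the difference was -11.52 (SE 0.31, limma adjusted p = 1.27e-20), with -12.43 to -10.85 within the 4 slides. Its probes at bases 750 and 500 differed by -11.27 (SE 0.36) and -4.96 (SE 0.43). The measured fold for base 250, 2933, rests on leaf spots most of which were not above background, and with normexp the difference was -9.45.

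Contig12200 and contig09522 were high in leaf on their brightest seed probes. Contig12200 read 9.37, 8.29, 8.01, 7.82 and 8.01 in non-toxic leaf and 9.24, 9.50, 9.23, 8.77 and 7.95 in toxic leaf. All 10 arrays detected it, overlapping stages I and II, and its leaf mean of 8.62 stood 0.11 above stage I and 0.064 below stage II. The difference from seed stages II to V was 2.77 (SE 0.23, limma adjusted p = 1.03e-10). At the probe at base 0, the floor-based estimate put leaf 50.1-fold above stage V and 88.4-fold above stage VI. The probe of contig12200 at base 250 was detected on 3 leaf arrays. Contig09522 read 10.63, 10.59, 10.01, 10.90 and 11.09 in non-toxic leaf and 11.89, 10.98, 10.69, 10.84 and 12.11 in toxic leaf at its probe at base 250. Its probes at bases 0 and 500 were detected on no leaf array. At base 250 the difference was 2.09 (SE 0.26, adjusted p = 1.72e-07), and the leaf mean of 10.97 lay between those of stages II and III. Both differences came from the later seed stages: against stages II and III alone, an alternative chosen after seeing the data, they were 0.52 (adjusted p = 0.143) for contig12200 and 0.15 (adjusted p = 0.740) for contig09522.

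Contig02028 and contig14503 did not pass the leaf contrast on their brightest probes. Contig02028 read 11.18, 11.82, 11.79, 12.37 and 11.56 in non-toxic leaf and 12.32, 11.78, 11.43, 11.15 and 12.48 in toxic leaf, inside the range of the seed stages. Its difference was -0.17 (SE 0.15, limma adjusted p = 0.390), with 0.40 against stages II and III alone. Contig14503 read 10.79, 10.26, 11.10, 10.95 and 7.07 in non-toxic leaf and 7.93, 9.27, 8.27, 9.69 and 10.03 in toxic leaf, below all of stages I to III. Its difference was -0.37 (SE 0.39, adjusted p = 0.468) over stages II to V and -2.82 (adjusted p = 1.4e-05) against stages II and III alone. Its probe at base 0 was higher in leaf than in stages II to V, by 0.93 (SE 0.38, adjusted p = 0.0487), and on slides 1 to 3 by 1.28 (adjusted p = 7.08e-05). That difference came from stages IV (7.04) and V (5.76). The means of 10.22 in non-toxic and 9.25 in toxic leaf lay below those of stages I (12.41), II (12.14) and III (10.31).

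Toxic and non-toxic leaves did not differ in any of the 23 probes by limma, and none had an unadjusted p under 0.05 (against 3.87%). Of all probes, 0.00519% passed. The largest difference among the representative probes was that of contig14503, -0.998 (SE 0.59, adjusted p = 1). On slides 1 to 3, where the non-toxic arrays read 10.79, 10.26 and 11.10 and the toxic ones 7.93, 9.27 and 8.27, it was -2.16 (adjusted p = 0.0463), and over the 4 slides the within-slide difference ran from -2.86 to 0.85. Without replicate 5 of non-toxic leaf, which read 7.07, it was -1.74 (adjusted p = 0.237). Contig09522 was 0.66 higher in toxic leaf (SE 0.40, adjusted p = 1), on all 4 slides, and contig12200 was 0.64 higher (SE 0.36, adjusted p = 1), on 3 of the 4.

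**Figure D3:**
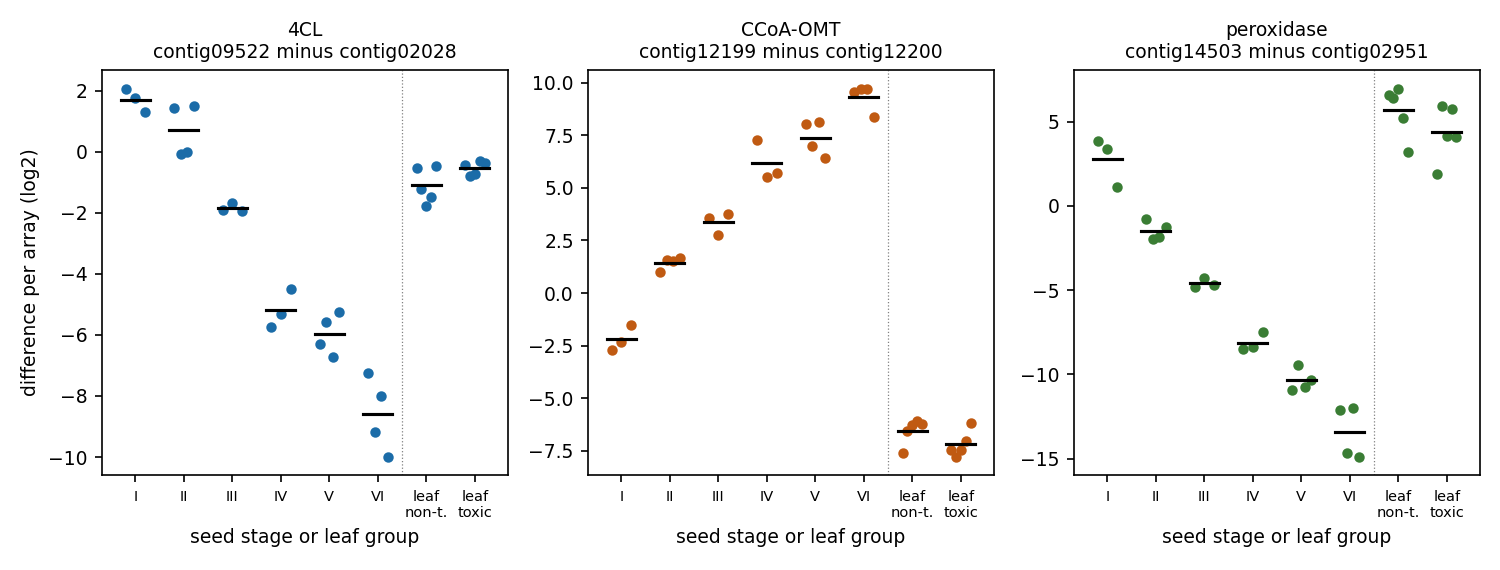
Difference in log2 intensity on the same array between the representative probes of the 2 contigs of an enzyme, on the vertical axis, in the 6 seed stages and 2 leaf groups. In the peroxidase panel, contig02951 is also listed as peroxiredoxin. Each point is 1 array and each bar a group mean; the height of a panel's scale has no meaning between probes, and only shifts between groups can be read, such as the CCoA-OMT shift from 4.56 in seed stages II to V to -6.86 in leaf.

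To ask whether the 2 contigs of an enzyme differed in how leaf compared with seed, their difference was taken on each array and compared between the 10 leaf arrays and the 14 seed arrays of stages II to V. For CCoA-OMT, contig12199 minus contig12200 was -6.86 ± 0.67 in leaf and 4.56 ± 2.60 in seed, a shift of -11.43 (two-sided permutation test, p = 2e-05, adjusted p = 3e-05 over the 3 enzymes). For peroxidase, contig14503 minus contig02951 was 5.01 ± 1.64 in leaf and -6.11 ± 3.73 in seed, a shift of 11.12 (permutation p = 2e-05, adjusted p = 3e-05). These are the smallest values that 100000 resamples allow, and in both enzymes the 10 leaf arrays lay on one side of the 14 seed arrays compared. At stage I, which was not compared, the peroxidase difference was 1.14 to 3.85 and overlapped that of leaf. Contig02951 is also listed as peroxiredoxin, so the peroxidase pair may not be of the same enzyme. For 4CL, contig09522 minus contig02028 was -0.81 ± 0.51 in leaf and -3.01 ± 2.95 in seed, a shift of 2.19 (permutation p = 0.0290, adjusted p = 0.0290), and the leaf values lay inside the seed range of -6.73 to 1.48. The 4CL means ran from 0.71 at stage II to -5.96 at stage V. Each pair was chosen for opposite changes from I to VI, so such a drift over the stages is partly set by the choice. The test pooled the 4 stages, so the size of every shift, and its p-value, depends on the stages taken. On slides 1 to 3 the 4CL shift was 2.17 (adjusted p = 0.0698).

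**Figure D4:**
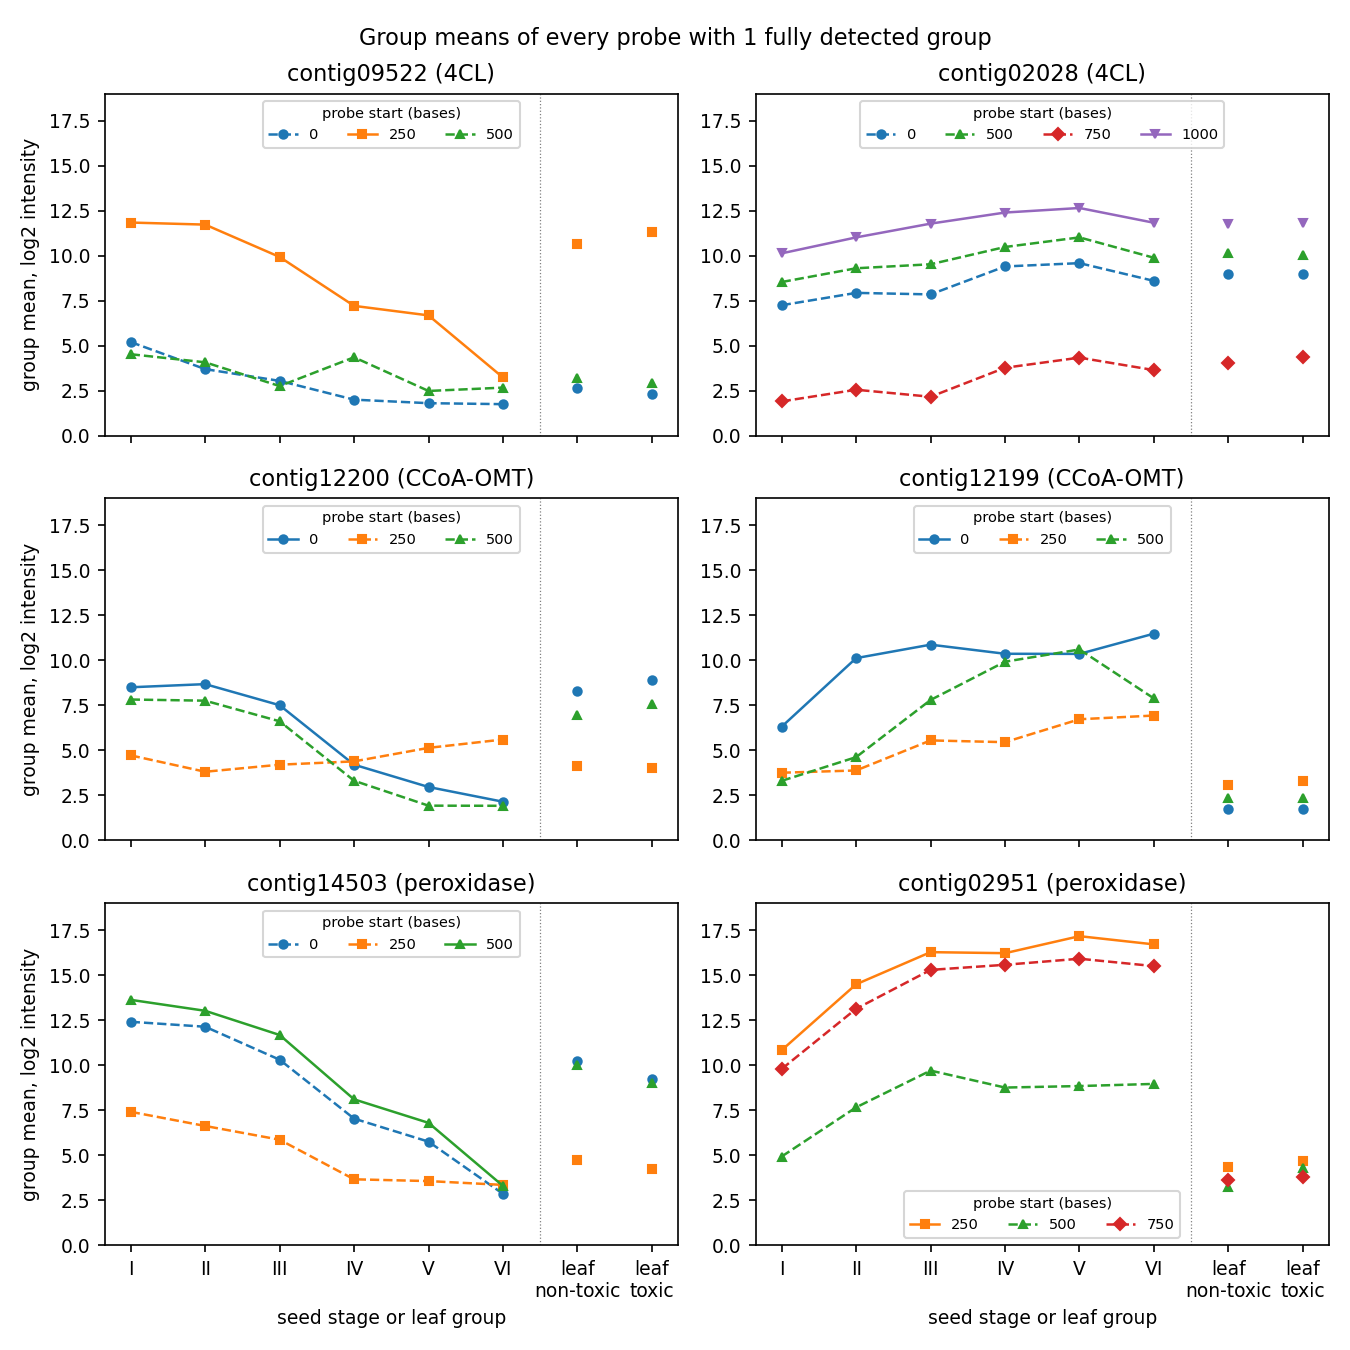
Group means of normalized log2 intensity, on the vertical axis, of the 19 member probes that were detected on every array of at least 1 group, by seed stage and leaf group. Solid lines mark the representative probe and dashed lines the others, named by the base at which they start; in contig12200 the probes at bases 0 and 500 fell together while that at base 250 did not.

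The probes of a contig did not always follow each other. The probe names do not give a direction, and it was inferred here from the start of each probe and the study's probe spacing. Probes starting at a multiple of 500 bases were taken as sense (13 of the member probes) and those offset by 250 as antisense (10). Both terms are relative to the contig as assembled. For contig02951 the antisense probes at bases 250 and 750 moved together (Pearson r = 0.999 over the 8 group means), the sense probe at base 500 followed (r = 0.958), and the sense probe at base 0 was never detected. For contig12200 the sense probes at bases 0 and 500 moved together (r = 0.993), whereas the antisense probe at base 250, detected on 18 arrays, ran the other way (r = -0.83 with base 0) with 4.73 ± 0.58 at stage I, 5.14 ± 0.22 at stage V and 5.61 ± 0.55 at stage VI. For contig14503 the 3 probes moved alike, with r of 0.984, 0.917 and 0.882 between pairs. For contig02028 the sense probes at bases 0, 500 and 1000 had r of 0.896 to 0.968. Its antisense probes at bases 250 and 750 were detected on 9 and 14 arrays, of which 6 and 4 were leaf arrays. Leaf was above seed stages II to V by 2.02 (SE 0.39, limma adjusted p = 7.82e-05) and 1.00 (SE 0.32, adjusted p = 0.0103), with many of the spots undetected. On slides 1 to 3 these differences were 1.58 and 0.68. For contig12199 the probe at base 0 had r = 0.816 with base 250 and r = 0.823 with base 500. For contig09522 the antisense probe at base 250 had r = 0.713 with base 0 and r = 0.438 with base 500, and these 2 sense probes, little above background, had r = 0.644 with each other. These correlations are descriptions over 8 group means from the same arrays.

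**Figure D5:**
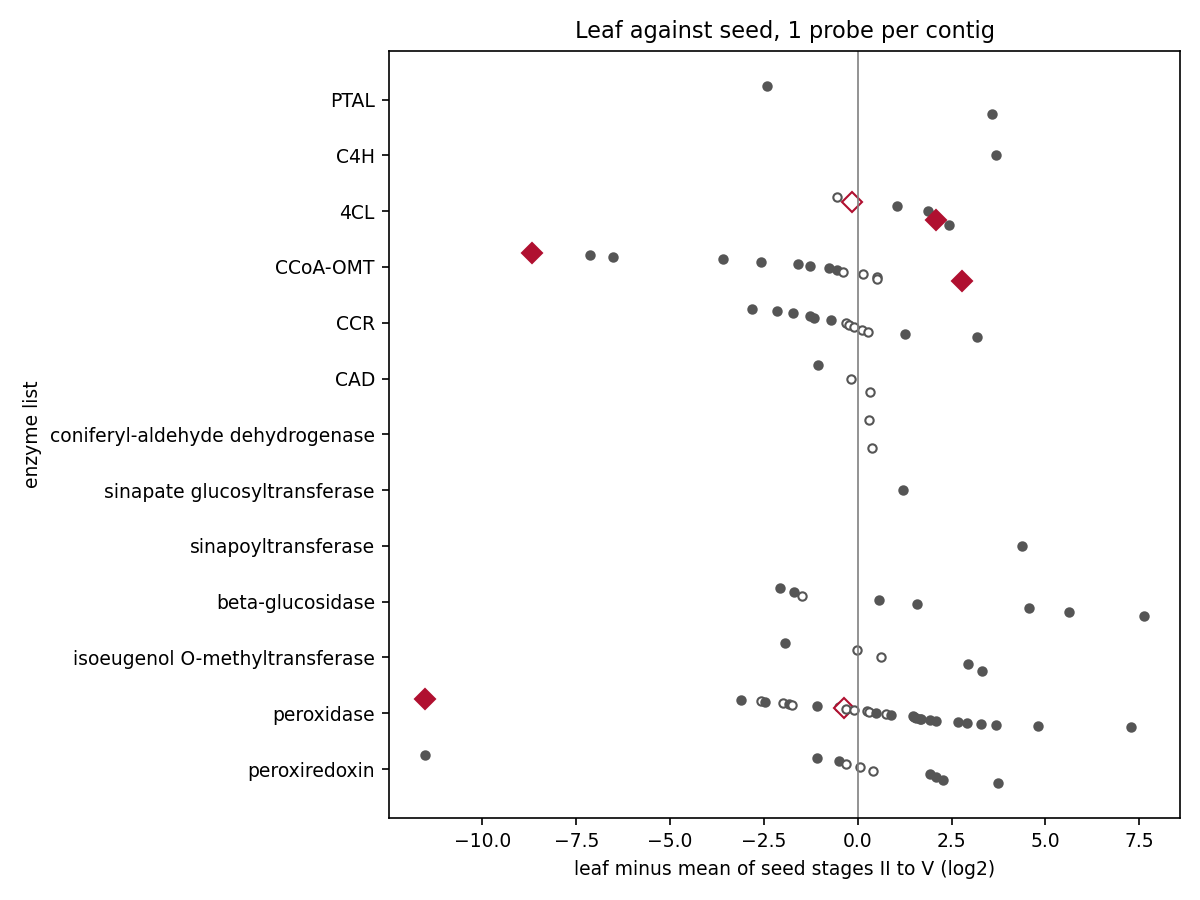
Log2 difference between leaf and the mean of seed stages II to V, on the horizontal axis, for 1 probe per contig of 13 phenylpropanoid enzyme lists. Filled symbols passed limma at adjusted p under 0.05, open symbols did not, and the diamonds are the 6 member contigs; the members of CCoA-OMT, at -8.68 and 2.77, were the lowest and the highest of their list, and contig02951 (-11.52) stands in the peroxidase and peroxiredoxin rows.

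Other contigs of the same enzymes followed the members to different degrees. Of the 5 further 4CL contigs, 4 were higher in leaf than in seed stages II to V and none was lower, beside 32% of all representative probes higher and 30.4% lower. The median of these 5 was 1.87, against -0.00061 over all representative probes. The highest of the 5 was contig07611 (2.42, limma adjusted p = 3.98e-11), with contig02947 the lowest (-0.56, adjusted p = 0.178). From II to III 3 of these 5 fell and 1 rose (14.3% and 9.73% of all representative probes), and from III to IV 4 fell and none rose (6.2% and 10.1%). Of the 12 further CCoA-OMT contigs, none was higher in leaf and 8 were lower (median -1.02). Among them contig21555 (-7.14), contig11569 (-6.53) and contig21354 (-3.58), singled out after their values were seen, were detected on none of the 10 leaf arrays, as contig12199 was. Contig05122 (-0.77) was also undetected in leaf, but only 6 seed arrays detected it. Of the 28 further peroxidase contigs, 15 were higher and 5 lower in leaf (median 0.82), with contig02903 the highest (7.27, adjusted p = 6.45e-17). From II to III 7 peroxidase contigs fell and 1 rose, and from III to IV 5 fell and 1 rose. None of the 9 further peroxiredoxin contigs neared contig02951, their differences between leaf and seed running from -1.09 to 3.74. The 2 lists overlap: contig00058, contig00059, contig00906, contig01550 and contig13779 were counted in both. Contig00058 was the peroxidase contig that rose from II to III.

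At the entry of the pathway, the PTAL contig05269 fell by 3.75 from II to III and by 3.71 from III to IV (limma adjusted p = 1.2e-06 and 9.61e-06) and was 3.57 higher in leaf. The only C4H contig, contig00044, fell by 2.99 and 3.78 over the same steps, was 3.68 higher in leaf, and rose by 3.98 from IV to V (adjusted p = 7.77e-07), a step at which no member passed over all arrays, while on slides 1 to 3 contig12200 passed at bases 0 and 500 and contig14503 at base 0. The second PTAL contig, contig05064, was 2.42 lower in leaf and fell by 3.71 from IV to V (adjusted p = 0.00354). Among the reductases, CCR had 2 contigs higher and 6 lower in leaf of 13, from contig00630 (-2.83) to contig01729 (3.18), and CAD had 1 lower of 3 (contig03495, -1.07, with contig12136 at -0.18 and contig05856 at 0.32). In the side branches, the sinapoyltransferase contig02975 was 4.38 higher in leaf and the sinapate glucosyltransferase contig03272 1.21 higher, and beta-glucosidase, which frees lignin alcohols from their glucosides, ran from contig14485 (-2.06) to contig07683 (7.62), with 5 of 8 higher and 2 lower. Isoeugenol O-methyltransferase ran from contig06150 (-1.93) to contig14091 (3.31), with 2 of 5 higher and 1 lower, and the coniferyl-aldehyde dehydrogenases contig01863 (0.30) and contig11638 (0.39) did not pass.

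The contigs most like each member were sought by Pearson r over the 8 group means among 17463 contigs detected in at least 1 whole group. They were contig06738, contig13484 and contig04594 for contig09522 (r = 0.998 to 0.990), contig12440, contig00346 and contig11111 for contig02028 (0.982 to 0.974), and contig02260, contig17619 and contig02361 for contig12200 (0.995 to 0.992). They were contig01185, contig05530 and contig16319 for contig12199 (0.998 to 0.996), contig05886, contig17266 and contig07036 for contig14503 (0.996 to 0.991), and contig21540, contig20750 and contig11406 for contig02951 (0.997 to 0.996). Within the pathway lists, contig12199 and contig02951 were each other's nearest (r = 0.991), and both contig09522 (r = 0.976) and contig12200 (r = 0.979) were nearest to the PTAL contig05269. Contig02028 was nearest to contig00058 (r = 0.859), another contig listed as peroxidase and peroxiredoxin. The 8 means include stages I and VI, on which the members were chosen, so a likeness among risers or among fallers is partly set by the choice.

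The labelled tissues were checked on marker lists. The summed level of 8 photosynthesis contigs was 19.1 to 19.8 in leaf arrays and 12.4 to 15.1 in seed arrays, with 7 higher and 1 lower in leaf, and that of 4 storage protein and oil body contigs was 8.56 to 9.94 in leaf and 11.6 to 17.8 in seed, with all 4 lower in leaf. The seed storage sum was lowest at stage I (11.6 to 14.1), the stage at which contig12199 and contig02951 were also lowest, and the part of seed make-up in these levels was not tested. Of all spots, 47.9 to 69.6% were well above background on an array. The 7 arrays on slide 4, all of replicate numbers 4 and 5 and scanned on another day, stood apart, with a median correlation of 0.906 to arrays of the same group (21 pairs) against 0.968 among the other slides (24 pairs). In the deposited table these were 0.976 and 0.968. Without slide 4 the leaf differences of the representative probes were 1.93 (contig09522), -0.24 (contig02028), 2.91 (contig12200), -8.61 (contig12199), -0.33 (contig14503) and -11.61 (contig02951).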

How the data were processed

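The scanner files hold fluorescence intensity per spot, which the authors extracted with Agilent Feature Extraction 10.5.1.1 as processed signals after spatial detrending of the background, with flags for spots well above background, saturated or outlying. A log2 table, normalized by the authors in their own steps and deposited beside the scanner files, served as an alternative. Probes of 60 bases had been designed on contigs assembled from seed cDNA. Following the study's methods, the processed signals were averaged over spots of a probe, log2 transformed, imputed from the 10 nearest probes (848 values in 839 probes, no member among them) and quantile normalized over all 31 arrays. A linear model with 8 groups was fitted with limma 3.58.1 in R 4.3.3, with Benjamini-Hochberg adjustment over 57842 probes and calls at adjusted p under 0.05. Control spots were left out, as were spots the software marked as outliers. The p-values measure the spread between these samples. The study calls its seed replicates biological, but the seeds came from 1 plant, so this spread may be within the plant or technical. The pair comparison used a two-sided permutation test of 100000 resamples (scipy 1.17.1, numpy 2.4.6, pandas 2.3.3). Where no array of a group detected a probe, a floor-based fold is given. It is set against the lowest signal of any detected probe on each array or the probe's own signal, whichever is higher. Undetected spots can read above that lowest signal, so such a fold is not a strict minimum.

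The probe brightest on average in seed stood for its contig. Pathway contigs were taken from the study's enzyme lists and counted by direction; in lists of more than 3 contigs those with the largest rise and fall between leaf and seed were named, and likeness was Pearson r over 8 group means. The members and lists were chosen with earlier results of these data known. The peroxidase list was readable for 30 contigs. Results of 1 further enzyme list are not reported here. Alternatives were 75th percentile scaling, normexp (offset 50), the deposited table, dim probes left out, contig means, slides 1 to 3, slide as a block, fits of 1 tissue, a threshold of 1e-08 and each array left out. The model was run on simulated data with independent noise, no slide effect, and changes set only in probes above the floor. That run does not bear on slide effects or on falls to the floor. Probe sequences were not used here, so none are printed. No count of molecules underlies array intensities, and their precision is limited by the number of arrays.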

Additional observations from a re-analysis of the deposited data

Results flagged for a closer look

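In 4 of the 30 groups of 4 or 5 arrays examined (6 representative probes, 5 groups each), 1 array lay far from the rest by Dixon's gap criterion, where chance gives about 1 in 20. Contig12199 read 9.75 in replicate 4 of stage V, against 10.49 in the nearest array. Contig14503 read 13.29 in replicate 1 of stage II, against 12.96, and 7.07 in replicate 5 of non-toxic leaf, against 10.26. Contig02951 read 5.77 in replicate 4 of non-toxic leaf, against 4.21, at a level where 2 of that group's 5 arrays detected the probe. Of these 4 arrays, 3 were on slide 4, and the part of the slide in their values was not tested.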

How the results depend on the processing

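The count of member probes called between stages II and III moved most. It was 5, and became 10 with normexp, 12 with the deposited table, 8 with dim probes left out, 8 on slides 1 to 3, 9 with slide as a replicate block, 9 in a fit of seeds alone and 0 at an adjusted p under 1e-08. Leaving out 1 array gave 2 to 6, with 2 without replicate 1 of stage II and 3 without replicate 1, 2 or 3 of stage III. Between III and IV, 7 became 11 with the deposited table, 0 at 1e-08 and 6 to 7 with 1 array left out. Between IV and V, 0 became 1 with normexp, 3 with the deposited table, 3 on slides 1 to 3, 1 with the replicate block, 1 in seeds alone, and 0 to 1 with 1 array left out (1 without replicate 1 of stage IV). For leaf against seed, 12 became 7 at 1e-08 and 11 to 12 with 1 array left out. For toxic against non-toxic leaf, 0 became 2 on slides 1 to 3, both probes of contig14503. The 4CL pair shift was 2.17 on slides 1 to 3, and 1.91 to 2.54 with 1 array left out.

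Signs turned only in differences that had not passed the test. Contig12199 from III to IV was 0.28 as a contig mean, and from IV to V it was 0.033 with percentile scaling, 0.22 with the deposited table, 0.20 on slides 1 to 3, 0.11 with the replicate block, 0.63 as a contig mean and -0.093 to 0.20 with 1 array left out. In leaf against seed, contig02028 was 0.40 against stages II and III alone and 0.60 as a contig mean, and contig14503 was 0.036 as a contig mean. In toxic against non-toxic leaf, contig12199, undetected in both, was -0.0095 with normexp and -0.062 with the deposited table, and with 1 array left out it was -0.0091 to 0.011, contig02028 -0.076 to 0.26 and contig02951 -0.037 to 0.65. Of 300 single differences under other settings, 264 kept direction and side of the threshold, as did 302 of 324 with 1 array left out. The cause of these moves was not tested.

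Replicate numbers followed the slides, but arrays of the same number did not all deviate together. The mean correlation of their deviations from group means was 0.19, 0.095, 0.25 and 0.60 on slides 1 to 4, and 16 of 28, 12 of 28, 24 of 28 and 19 of 19 pairs exceeded 0.1. Deviations were thus shared most on slide 4, which held no array of stage I, III or IV. The numbers were not taken as pairs, and the main model had no slide term, since the study's methods name none. The counts with slide as a replicate block are given above. Percentile scaling moved the median of all probes to 0.45 from II to III, -0.30 from III to IV and -0.20 between leaf and seed. The median signal over background was 1.85 to 3.72 per array, so differences among undetected spots have no order.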
